A study of Mus musculus with 12 samples.

Results

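Composite-exon intronic poly(A) sites (PASs) close to the terminal exon were taken from the list of PASs that 3′READS+ gave for mouse hippocampal mini-slices. A member is an entry labelled intron_Comp that lies up to 5000 nt upstream of the first exon3 PAS of its gene, by strand and position, in a gene on 1 chromosome and 1 strand. The rule found 2114 entries in 1483 genes, out of 56204 entries of all labels and 13408 labelled intron_Comp. No cutoff on reads or relative abundance was applied to these entries here. The paper reports fewer PASs in fewer genes, and its per-library counts carry such a cutoff. How many members would pass that cutoff was not tested. The label exon3 was taken as the 3′-most exon, although some genes list intron_Comp entries at or downstream of their first exon3 PAS.

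The libraries came from acute hippocampal mini-slices of C57BL/6 male mice labelled 3 month old, with the dentate gyrus trimmed away. Chemical LTP was induced over 10 min with 50 uM forskolin, joined in the second part by 30 mM KCl and 10 mM Ca2+, whereas control slices were given 0.2% DMSO over the same 10 min. Tissue was frozen at 1 hr or at 3 hr after treatment, which makes 4 groups with 3 libraries each, numbered by animal. None of the 12 count columns carries the name of a sample, and the columns were not matched to samples by order or totals. The LTP and control slices are therefore not compared here. The read counts were also not summed per site, so the read support of the sites below is not given.

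An intronic PAS ends a transcript before the terminal exon is reached. At a composite terminal exon, the 5′ splice site of an internal exon stays unused and the exon runs on into the intron up to the PAS. At a skipped terminal exon, the transcript ends in a separate exon that the full-length mRNA leaves out. Both kinds of isoform lose the coding sequence and the 3′UTR of the terminal exon, and a site near the 3′ end of the gene leaves most of the upstream exons in place. The U1 snRNP, which recognizes 5′ splice sites, is known to hold back cleavage at PASs within introns.

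Of the 15071 genes with an exon3 PAS to which the rule could be applied, 9.84% held at least 1 composite PAS within 5000 nt (95% Wilson interval 9.37% to 10.3%). These genes carried 11453 intron_Comp entries, of which 2114 lay within the limit, 9187 farther upstream and 152 at or downstream of the first exon3 PAS. The remaining 1955 intron_Comp entries were in genes without an exon3 PAS or in genes that the rule leaves out. The members stood at 2105 distinct sites, 1001 entries on the plus strand and 1113 on the minus strand. The share of genes with a member ran from 7.73% on chromosome 6 to 12.7% on chromosome 8 among the autosomes. On the X chromosome it was 7.91%, and none of the 4 genes of the Y chromosome held one.

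The members lay a median of 2498 nt upstream of the first exon3 PAS, with quartiles at 1423 and 3702 nt. The distance was part of the rule, so its spread is a description. The distances start at the first exon3 PAS and so include the part of the terminal exon before it, where no intronic site can lie, and the start of that exon was not located. In the first 500 nt there were 101 members, or 202 per 1000 nt summed over genes, against 438 per 1000 nt between 500 and 1000 nt. The highest density was 516 per 1000 nt, between 2000 and 2500 nt upstream. From there it fell to 386 per 1000 nt in the last 500 nt before the limit and to 304 per 1000 nt between 5000 and 10000 nt. How many introns reach to each distance was not counted, since no annotation of the build of the list was used.

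**Figure D1:**
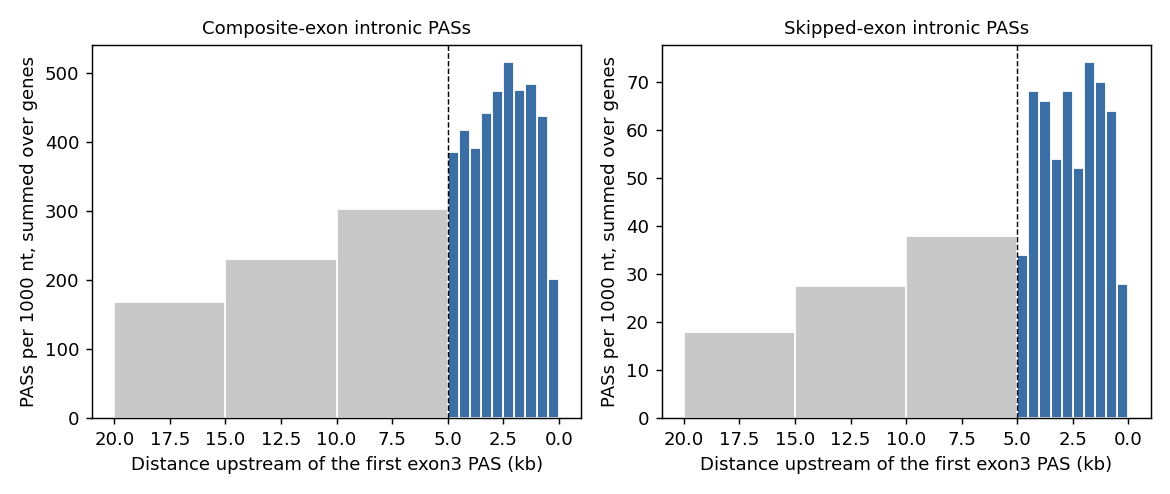
Number of PASs per 1000 nt, summed over genes, against the distance upstream of the first exon3 PAS in kb, for composite (left) and skipped (right) intronic PASs. Blue bars are 500 nt wide and lie within the 5000 nt limit (dashed line), and grey bars are 5000 nt wide. The composite sites are at 202 per 1000 nt in the 500 nt before the first exon3 PAS, part of which is terminal exon, reach 516 and decline beyond 5000 nt to 304.

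Skipped terminal exons were spread over the same distances in like shares. Of the 11301 composite PASs upstream of the first exon3 PAS, 18.7% lay within 5000 nt (95% interval 18.0% to 19.4%), and of the 1522 skipped ones 19.0% did (17.1% to 21.0%). Within 1000 nt, the shares were 2.83% (2.54% to 3.15%) for composite and 3.02% (2.27% to 4.01%) for skipped sites. The intervals overlap at each of the limits of 1000, 2500, 5000 and 10000 nt. No test of these shares was made, and sites of 1 gene are not independent of each other.

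The nearest member was in *A930012L18Rik* on the plus strand of chromosome 18, 60 nt upstream of the first exon3 PAS. The next was in *Zfp369*, a zinc finger gene, at position 65397344 of chromosome 13 on the plus strand, 74 nt upstream. *Zfp931*, another zinc finger gene, followed with a site at 177803195 on the minus strand of chromosome 2, 117 nt upstream. All positions are those of the list.

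At the limit of 5000 nt, the last members inside were those of *Sh2b3* at 4999 nt and of *Adam21* and *Tubgcp3*, both at 4993 nt. The first sites outside were those of *Ftsj3* at 5001 nt, *1810013L24Rik* at 5002 nt and *4833418N02Rik* at 5003 nt. *Ftsj3* and *1810013L24Rik* hold other sites inside the limit, at 252 and 2732 nt and at 4095 nt. *4833418N02Rik* holds none.

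Most genes had a single member. There were 1078 such genes (72.7%), and 405 genes, or 27.3% (25.1% to 29.6%), held more than 1, with 1036 of the members between them. The 5000 nt window limits the number per gene. Of the genes with composite PASs over 5000 nt upstream, 47.9% held a single one there. Up to 8 members were listed in a gene, and 24 genes held 5 or more. In the genes with more than 1, the members stretched over a median of 851 nt, and neighbouring members lay a median of 405 nt apart, with quartiles at 140 and 1152 nt. The closest pair was 26 nt apart, just beyond the 24 nt within which the authors merged sites, and 122 of the 631 neighbouring pairs lay within 100 nt. For comparison of scale, neighbouring exon3 PASs of the same 1483 genes were a median of 180 nt apart.

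The gene with the most members was *1110002N22Rik* on the minus strand of chromosome 11, with 8 sites between 2898 and 599 nt upstream. *Kcnh3*, which encodes a voltage-gated potassium channel of the ether-à-go-go family, held 7 on the plus strand of chromosome 15. They lay at 99070579, 99070814, 99070844, 99070953, 99071167, 99071257 and 99071691, from 2658 to 1546 nt upstream of the only exon3 PAS of the gene at 99073237. One further composite PAS of *Kcnh3* lay 13913 nt upstream. In *Kcnh3*, the 7 sites thus fell within 1112 nt.

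Also with 7 members were *D030028A08Rik* on chromosome 11, from 3561 to 792 nt upstream, and *Layn* on chromosome 9, from 4638 to 775 nt upstream. *Layn* encodes layilin, a hyaluronan receptor. *Fpgt*, the gene of fucose-1-phosphate guanylyltransferase, held 6 members on the minus strand of chromosome 3, between 4410 and 1367 nt upstream of the first of its 9 exon3 PASs. In *Zfp931* the 5 members were packed into 550 nt, at 667, 319, 241, 161 and 117 nt upstream. The members of *Zfp931* therefore reached closer to the first exon3 PAS than any of those in *Kcnh3*, *Layn* or *Fpgt*.

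**Figure D2:**
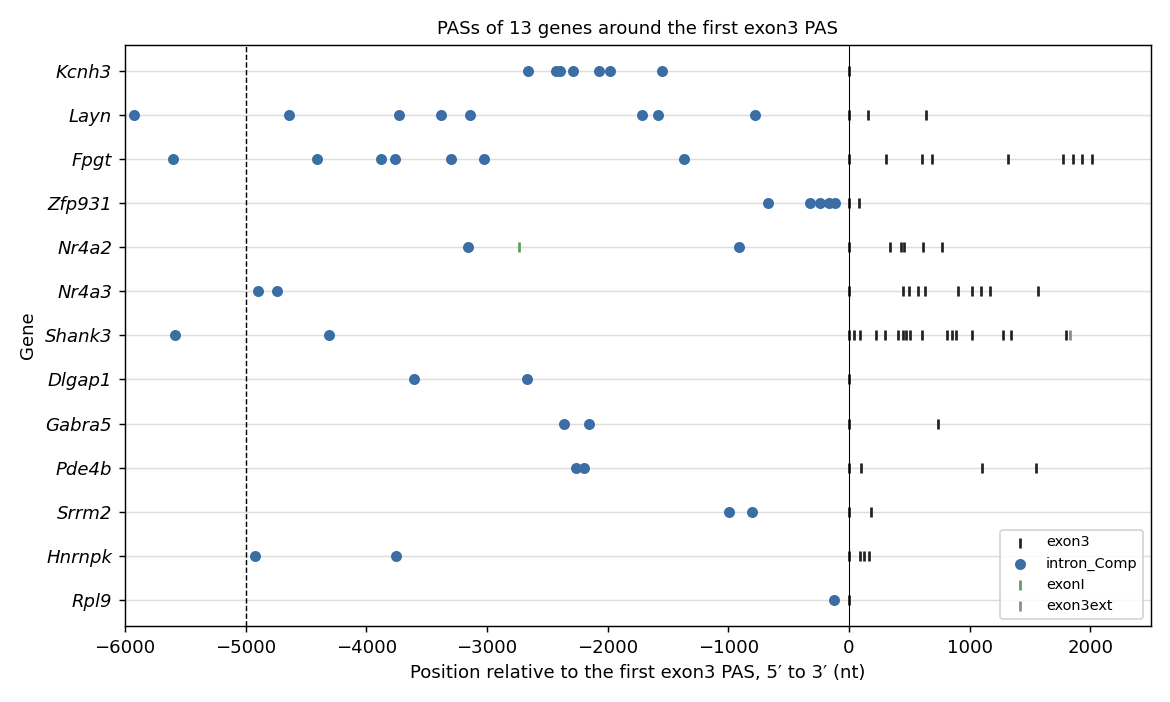
PASs of 13 genes named in the text, by position relative to the first exon3 PAS in nt, 5′ to 3′, with composite intronic PASs as circles, other labels as ticks and the 5000 nt limit as a dashed line. The 7 sites of *Kcnh3* lie between 2658 and 1546 nt upstream, those of *Zfp931* within the last 667 nt, and *Shank3* has the most exon3 PASs of these genes, with 17.

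**Figure D3:**
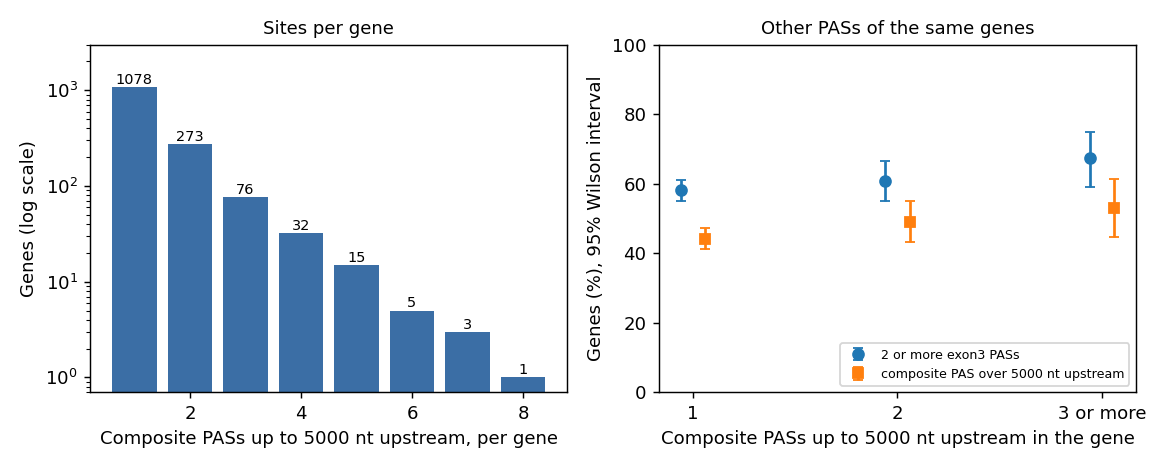
Left, number of genes (log scale) by how many composite PASs up to 5000 nt upstream they hold, from 1078 genes with 1 to a single gene with 8. Right, share of these genes in percent, with 95% Wilson intervals, that have 2 or more exon3 PASs (circles) or a composite PAS over 5000 nt upstream (squares), by number of members, with overlapping intervals for 2 and for 3 or more members.

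The genes with members also carried other intronic PASs. A composite PAS over 5000 nt upstream was listed in 680 of the 1483 genes (45.9%, 43.3% to 48.4%) and an intron_Skip PAS in 105 (7.08%, 5.88% to 8.50%), with both in 79. In 777 genes (52.4%, 49.8% to 54.9%) neither of these was listed. Composite entries at or downstream of the first exon3 PAS were not considered in this count. The share with a farther composite site was 44.2% (41.2% to 47.1%) in genes with 1 member and 53.0% (44.6% to 61.3%) in genes with 3 or more. The 2 genes with the most PASs among the 79 were *Prkcc*, which encodes protein kinase C gamma, and *Ccdc109a*. *Prkcc* held 1 member, 150 nt upstream, beside 17 farther composite PASs, 1 skipped PAS and 8 exon3 PASs. *Ccdc109a* held 1 member at 2351 nt, 5 farther composite PASs and 14 skipped ones.

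Between a member and the first exon3 PAS, most often no other site was listed. The next PAS downstream was an exon3 PAS for 1440 of the 2114 members (68.1%), a median of 2241 nt away. It was another composite PAS for 621 members (29.4%), exonI for 34 and intron_Skip for 19. The rule takes sites near the first exon3 PAS, so these shares are a description. Among composite PASs over 5000 nt upstream, the next PAS was an exon3 PAS in 29.2% (28.3% to 30.1%). The label exonI was read as an internal exon. For 753 members (35.6%, 33.6% to 37.7%), no PAS of the gene was listed farther upstream, so that the member was its first PAS.

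Genes with a member often had several exon3 PASs. In 881 of the 1483 genes (59.4%, 56.9% to 61.9%) the terminal exon held 2 or more. The share was 62.1% (60.4% to 63.9%) in the 2981 genes with composite PASs only over 5000 nt upstream and 44.5% (43.6% to 45.5%) in the 10577 genes with none. The outermost exon3 PASs of the genes with members were a median of 715 nt apart (95% interval 625 to 776 nt), against 897 nt (812 to 962 nt) in the genes with only farther sites. In the genes with none the median was 816 nt (770 to 856 nt), an interval that overlaps both of the others. In 688 of the 881 genes (78.1%), the nearest member was farther from the first exon3 PAS than the exon3 PASs spanned among themselves.

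Other labels were likewise listed for the genes with members. A PAS labelled exon3ext, beyond the annotated end, was listed for 17.1% (15.3% to 19.1%) of them, 16.0% (14.7% to 17.4%) of the genes with only farther composite sites and 10.2% (9.64% to 10.8%) of the genes with no composite site. For UA, the upstream antisense label, the shares were 24.5% (22.4% to 26.7%), 20.9% (19.4% to 22.4%) and 9.27% (8.73% to 9.83%). An exonI PAS was listed for 8.09% (6.81% to 9.59%), 6.07% (5.27% to 6.99%) and 0.974% (0.804% to 1.18%) of the 3 groups of genes. For intron_Skip, the order of the first 2 groups was the other way round, with 7.08% (5.88% to 8.50%) in genes with members, 12.4% (11.2% to 13.6%) in genes with only farther sites and 3.44% (3.11% to 3.81%) in those with none. The read number of each gene was not used here.

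**Figure D4:**
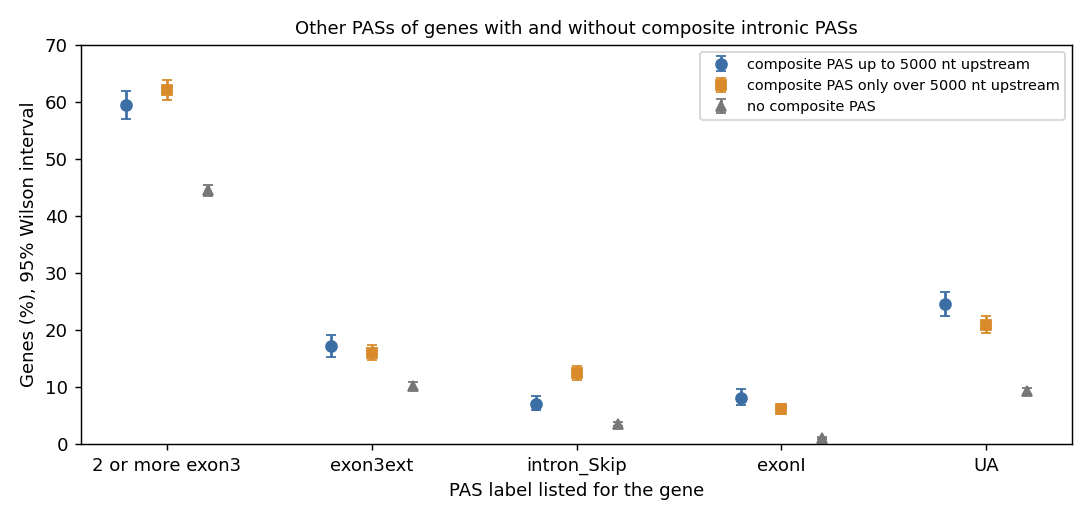
Share of genes in percent, with 95% Wilson intervals, for which a given kind of PAS is listed, in genes with a composite PAS up to 5000 nt upstream (circles), only farther upstream (squares) or none (triangles). Genes with no composite PAS are lowest for every label shown, for example 44.5% against 59.4% and 62.1% for 2 or more exon3 PASs, and intron_Skip is at 7.08% in the first group and 12.4% in the second.

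By gene type in the RefSeq table, matched by symbol or synonym, 1406 of the 1469 matched genes with members were protein coding (95.7%, 94.6% to 96.6%) and 54 were lncRNA genes (3.68%, 2.83% to 4.77%). The lncRNA share was 1.42% (1.05% to 1.91%) in genes with only farther composite sites and 1.40% (1.19% to 1.64%) in genes with none.

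The genes with members were then read against lists of genes that fit the tissue and the treatment, each beside the 9.84% of all genes. These lists are small selections and not complete classes, so other genes of a class can hold members too, and their intervals are wide. The interval of each list included 9.84%, also that of the glial markers, where no gene had a member. Shares by list are given as a description, and no enrichment was tested.

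**Figure D5:**
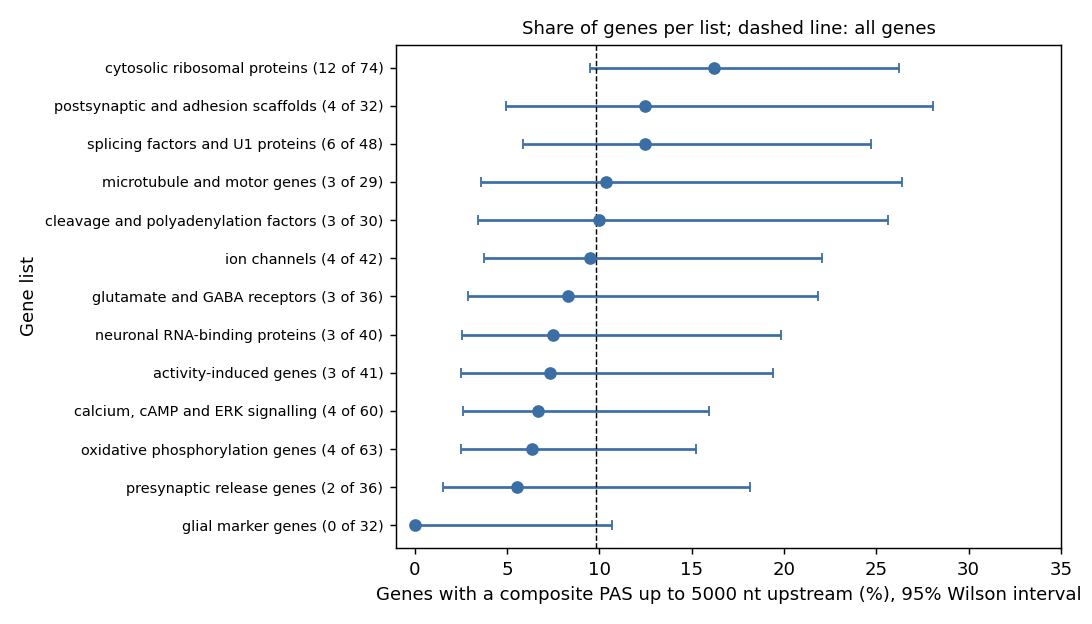
Share of the genes of each list, in percent with 95% Wilson interval, that hold a composite PAS up to 5000 nt upstream of the first exon3 PAS, with the number of genes in parentheses. The dashed line marks the share over all genes, 9.84%, and the interval of each list shown includes it, from 0 of 32 glial marker genes to 12 of 74 ribosomal protein genes.

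Among genes induced by neuronal activity, 3 of 41 (7.32%, 2.52% to 19.4%) held a member: the nuclear receptor genes *Nr4a2* and *Nr4a3* and the clock gene *Per1*. *Nr4a2* on the minus strand of chromosome 2 had members at 56963533 and 56961285, 3159 and 911 nt upstream of the first of 6 exon3 PASs at 56960374. An exonI PAS stood between them at 56963104, and a farther composite PAS lay 6475 nt upstream. The pair of *Nr4a3* members on chromosome 4 was closer together and farther from the first exon3 PAS. Its sites stood at 48092224 and 48092379, which is 4898 and 4743 nt upstream of the first of 10 exon3 PASs. *Per1* had 1 member 3611 nt upstream, at 68919796 on chromosome 11.

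For neurotransmitter receptors the count was 3 of 36 genes (8.33%). *Gabra5*, a GABA-A receptor subunit gene, held members at 64666142 and 64665931 on the minus strand of chromosome 7, 2364 and 2153 nt upstream, and no other intronic PAS. The kainate receptor subunit genes *Grik5* and *Grik2* had 1 each, at 1203 and 4627 nt, with 2 and 4 farther composite sites. No AMPA, NMDA or metabotropic receptor gene among the 36 held a member.

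Scaffold genes of the postsynaptic density and synaptic adhesion had members in 4 of 32 cases (12.5%, 4.97% to 28.1%). *Dlgap1*, a binding partner of PSD-95, held them at 71165140 and 71166071 on chromosome 17, 3602 and 2671 nt upstream of its only exon3 PAS, with a further composite site 207366 nt upstream. *Homer3* held a pair 67 nt apart, at 72816182 and 72816249 on chromosome 8, 2070 and 2003 nt upstream, and a skipped PAS at 6656 nt. *Shank3*, a scaffold of excitatory synapses, held 1 member at 89384584 on chromosome 15, 4312 nt upstream of the first of 17 exon3 PASs. In *Shank3* this was the last of 7 composite sites, and the one before it missed the limit at 5584 nt. *Sipa1l1*, which encodes a RapGAP of dendritic spines, held 1 member at 3796 nt.

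In the presynaptic list, 2 of 36 genes (5.56%) had a member. *Syn1*, the gene of the vesicle protein synapsin I, had it 717 nt upstream, at 20438963 on the minus strand of the X chromosome. *Sv2a*, a synaptic vesicle glycoprotein gene, had it 2911 nt upstream. Neither gene listed another intronic PAS.

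Of 60 listed signalling genes of the calcium, cAMP and ERK pathways, 4 had a member (6.67%, 2.62% to 15.9%). *Adcy9*, an adenylyl cyclase gene, held 1 at 4044 nt beside 11 farther composite sites. *Pde4b*, which encodes a cAMP-degrading phosphodiesterase, held a pair 63 nt apart, at 102276052 and 102276115 on chromosome 4, 2260 and 2197 nt upstream. The kinase gene *Rps6ka1* had 1 member at 3261 nt and *Prkcc* the one at 150 nt given above. Outside the list, and named after its value was seen, the adenylyl cyclase gene *Adcy7* had a member at 2622 nt.

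Of the listed ion channel genes, 4 of 42 (9.52%) held a member, and 7 of the 11 members of this list belonged to *Kcnh3*. *Kcnn2*, the gene of a calcium-activated potassium channel, held members at 2777 and 1923 nt beside 13 farther composite sites. The calcium channel subunit gene *Cacnb3* had a member at 1374 nt, and *Kcnj9*, an inward rectifier gene, had one at 2419 nt. Outside the list, and named after its values were seen, the potassium channel gene *Kcng1* held 4 members at 2572, 2112, 2041 and 1998 nt.

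Of 30 listed genes of the cleavage and polyadenylation machinery and its partners, 3 had a member (10.0%, 3.46% to 25.6%). The gene of the scaffold protein symplekin, *Sympk*, was misspelled in this list, and with it the count was 4 of 31 (12.9%, 5.13% to 28.9%), with its member at 2865 nt. *Pabpc1*, which encodes the cytoplasmic poly(A)-binding protein, had one 734 nt upstream at 36526152 on the minus strand of chromosome 15. *Cstf1*, a subunit gene of the cleavage stimulation factor, had one at 3930 nt. *Cdc73*, of the Paf1 complex that travels with RNA polymerase II, had one at 3806 nt, with 6 farther composite sites. For *Pabpc1* and *Cstf1* the member was the only intronic PAS.

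Among splicing factor and U1 protein genes, 6 of 48 (12.5%, 5.86% to 24.7%) held 8 members. *Srrm2*, a gene of splicing speckles, held 2 at 23960533 and 23960719 on chromosome 17, 992 and 806 nt upstream. *Hnrnpk* held 2 at 4921 and 3756 nt, in a row with 3 more composite sites at 7644, 6503 and 6321 nt that fell outside the limit. *Luc7l*, whose product is related to a U1-associated factor, had 1 at 1259 nt, in a gene whose 2 exon3 PASs were 3535 nt apart. *Hnrnpf* had 1 at 1326 nt, *Snrpc*, which encodes a protein of the U1 snRNP, 1 at 2178 nt, and *Hnrnph2* 1 at 2332 nt. Neuronal RNA-binding proteins had members in 3 of 40 genes (7.50%), *Celf3* at 2871 nt, *Khdrbs1* at 3963 nt and *Fxr2* at 4920 nt. In these 3 genes the member was accompanied by 1, 3 and 2 farther composite sites. *Fxr2* also listed exonI PASs, both between its member and the first exon3 PAS and downstream of its exon3 PASs.

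The highest share among the lists was that of cytosolic ribosomal proteins, with 12 of 74 genes (16.2%, 9.53% to 26.2%), whose lower bound is just under the 9.84% of all genes. Most of their members lay closer to the first exon3 PAS than the median of 2498 nt over all members. Gene length was not taken into account. The closest was that of *Rpl9*, 122 nt upstream at 65779719 on the minus strand of chromosome 5. *Rpl7* and *Rpl13* had theirs at 389 and 428 nt, *Rpl36* at 514 nt and *Rps15* at 918 nt. Those of *Rpl24*, *Rpl10* and *Rpl30* were at 1534, 1897 and 2039 nt, and those of *Rpl5*, *Rps14* and *Rpl3* at 2943, 3020 and 3479 nt. The *Rpl30* site was also listed as a member under another gene. Of 63 listed genes for oxidative phosphorylation, 4 had members (6.35%, 2.50% to 15.2%), which were *Sdhd* with members at 3772 and 2181 nt, *Ndufs5* at 4979 and 3819 nt, *Atp5g2* at 2041 and 1966 nt and *Atp5b* at 787 nt.

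Of 29 listed microtubule and motor genes, 3 had members (10.3%), or 3 of 35 (8.57%) once 6 genes listed under older symbols were added. *Kif5b*, a heavy chain gene of conventional kinesin on the minus strand of chromosome 18, held 4 members at 4111, 3927, 2992 and 2517 nt upstream of the first of 10 exon3 PASs. *Kif2a* had 1 member at 794 nt and *Stmn1*, the gene of stathmin, 1 at 2546 nt. None of the 32 glial marker genes had a member (95% interval up to 10.7%).

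A few members stood near or at PASs listed under other genes. Within 1000 nt, a PAS of another gene was listed on the same strand for 35 members (1.66%, 1.19% to 2.29%) and on the opposite strand for 89 (4.21%, 3.43% to 5.15%). A site listed under more than 1 gene counted here as a PAS of another gene. The 35 members include such entries, with their own site labelled intron_Comp (22) or exon3 (5) under another gene. For composite PASs over 5000 nt upstream these shares were 0.425% (0.311% to 0.580%) and 0.294% (0.202% to 0.427%). For the first exon3 PASs of the genes with members they were 1.89% (1.31% to 2.72%) and 13.8% (12.2% to 15.7%). On the opposite strand, the share for members lay between that of the farther intronic sites and that of the terminal exon sites. These sets differ by the rule in their distance to the first exon3 PAS, so this order is a description. From which of overlapping genes the reads at such a site came was not tested.

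The same site was listed under more than 1 gene for 29 member entries, at 20 sites. It carried the intron_Comp label under another gene for 22 of these entries, the exon3 label for 5 and the UA label for 2. The 5 entries, named here after their values were seen, belonged to 3 genes. *U05342* shared 3 sites on chromosome 19 with the exon3 PASs of *Zfp91*, *BC096441* shared 1 on chromosome 11 with *Tnfsf12*, and *D4Ertd617e* shared 1 on chromosome 4 with *Ebna1bp2*. For these 3 genes, the site counted as intronic under one name and as a terminal exon site under the other.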

How the data were processed

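3′READS+ libraries were made from 12 samples, 3 in each of 4 groups. Per the labels and the study's methods, the authors mapped reads with Bowtie2 (build mm9 in the submitters' processing notes), called PASs from reads with unaligned Ts and clustered PASs within 24 nt. The deposited table is 1 list of PASs for all libraries. Its 12 columns of read counts were not used, since no column name matches a sample and matching by order or totals was not allowed. Library depth, replicate errors and tests between groups are therefore not given. Read support per site, which needs no such match, was not derived either.

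From the labels, strands and positions, distances were derived in pandas 2.3.3 (numpy 2.4.6, Python 3.11.15), intervals in scipy 1.17.1 and plots in matplotlib 3.10.9. UA entries were left out of the distances, of the strand condition and of the PASs of other genes nearby. They were kept in the total of entries, the UA shares and the sites listed under more than 1 gene. Wilson intervals at 95% cover counting error only and treat sites or genes as independent. The counting was tested on simulated data. Of 1483 genes with members, 1321 matched an Ensembl symbol, 149 only a RefSeq name and 13 neither. The annotation used is GRCm38, another build, so no coordinates or sequences were taken from it, and poly(A) signals were not analysed here.

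The members and gene lists were chosen with earlier results of these data known. Genes named are those with members in the lists, up to 4 a list by number of members and then distance, the 5 with the most members, the 3 nearest sites, the 3 on either side of the limit and the 2 richest genes with all intronic kinds. *Rpl3*, *Rpl5*, *Rpl10*, *Rpl24*, *Rpl30*, *Rpl36*, *Rps14*, *Rps15*, *Snrpc* and *Hnrnph2* were added from their lists, and *Adcy7*, *Kcng1* and *Sympk* after their values were seen. Some genes that the rule names are not reported here.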

Additional observations from a re-analysis of the deposited data

How the results depend on the processing

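The 5000 nt limit sets the number of members by construction. With a limit of 2500 nt there were 1058 sites in 826 genes, a median of 1424 nt upstream, and with 10000 nt there were 3634 sites in 2270 genes, a median of 4254 nt upstream. Measured from the last exon3 PAS, 1889 sites in 1340 genes qualified, and the share of composite PASs within the limit moved from 18.5% to 16.5%. With exon3ext sites added to exon3, 66.1% of the genes with members had 2 or more such sites in place of 59.4%. Counting sites within 100 nt once lowered the share of genes with more than 1 member from 27.3% to 23.9%. Without sites listed under more than 1 gene, 2074 sites in 1457 genes remained, and no value moved beyond its interval. The share of sites with a poly(A) signal was not run, since no genome of the build of the list was used. Leaving out each library was not run, since the columns of read counts were not used. With symbols respelled as in the list of sites, chosen after seeing the data, the shares of 4 gene lists ran from 6.56% to 12.9%, and each interval included 9.84%. No paired analysis was possible because no column name ties a read count to an animal. Each site has the same weight here, however many reads it had.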

Other observations

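Families defined by symbol alone, chosen after the values were seen, gave further shares of genes with a composite PAS within 5000 nt. Of 330 genes named Zfp, which mostly encode zinc finger proteins, 42 held such a site (12.7%, 9.56% to 16.8%), a median of 2628 nt upstream. Among 295 solute carrier genes named Slc it was 31 (10.5%, 7.50% to 14.5%), among 63 Rab GTPase genes 7 (11.1%, 5.49% to 21.2%), among 78 Usp and Ube2 genes 9 (11.5%, 6.19% to 20.5%) and among 189 Tmem genes 15 (7.94%, 4.87% to 12.7%). Of the 912 genes whose symbol ends in Rik, 123 did (13.5%, 11.4% to 15.9%). The share over all genes was 9.84%. The Rik interval lies above it, and no test was made.

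Beyond the genes described above, *Gpx4*, a glutathione peroxidase gene, held 5 sites within 5000 nt, between 2002 and 582 nt upstream. *Zfp760* and *Pih1d2* each held 5 in a short stretch, of 800 and 766 nt. These genes were named after their values were seen.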
